A study of Mus musculus with 78 samples.

Results

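H3K27Ac, acetylation of lysine 27 on histone H3, was profiled by ChIP-seq in TRIM28-degraded mESCs and in their DMSO controls, and the 6 libraries, of 78 samples in the series, are described here as peaks before and after loss of TRIM28. In each library the 20000 deposited peaks with the highest fold enrichment (signal at the peak over the local background of the peak caller) were taken, so that every library entered with the same number. A peak was called promoter when its summit lay within 1 kb of 1 of 54446 gene starts and distal otherwise. Merging the peaks of all libraries where they overlapped gave 35324 regions, of which 10918 were promoter regions and 24406 were distal. Of these regions, 444 overlapped a super-enhancer (SE) by at least 1 bp and 695 overlapped a full-length MMERVK or MMETn element. Regions that overlap an SE are counted below as lying in it. All 6 libraries came from the same V6.5 mESC line, in which endogenous TRIM28 carries an FKBP tag, so the DMSO controls have the tag as well. The dTAG-13 group (n = 3) received 500 nM dTAG-13, a molecule that sends FKBP-tagged protein to degradation, for 24 h, and the DMSO group (n = 3) received 0.05% DMSO, its solvent, for the same time. Cells grew in serum with LIF and were separated from feeder fibroblasts before fixation together with 750000 Drosophila S2 cells. Because the tag acts on the protein, no peak can serve as a check of the degradation. No source used here says that replicates came from separate clones or thaws, so the tests measure the spread between libraries of a single line.

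H3K27Ac is deposited by the acetyltransferases p300 and CBP on nucleosomes next to active promoters and enhancers and separates active from merely accessible enhancers. SEs are long clusters of such enhancers, dense in Mediator, near the genes that set cell identity. TRIM28 (KAP1) is brought to endogenous retroviruses (ERVs) by KRAB zinc-finger proteins and recruits SETDB1, which writes H3K9me3, a mark of silent chromatin that in mESCs covers many ERV families.

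To show what kind of DNA the results turn on, the 300 bases centred on the summit are given for 5 regions in lower case with every CpG in capitals, read from the plus strand of mm10 (RefSeq GRCm38.p6). They were chosen after their values were seen, and among those that appeared with dTAG-13 only regions with few masked repeat bases were considered. The first is the best-ranked region of the SE near Klf4 (chr4:55476055-55476354, intergenic), which lost all of its strongest peaks. The second lies near Fosb (chr7:19319630-19319929, intergenic) and had the largest distal fall. The other 3 were among the strongest peaks only after dTAG-13 and lie in an intron of Pigk, nearest to Rpl29-ps1 (chr3:152813535-152813834), near Cd2ap (chr17:42909762-42910061, intergenic) and in an intron of Igf2r, nearest to Airn (chr17:12739883-12740182).
Klf4 SE: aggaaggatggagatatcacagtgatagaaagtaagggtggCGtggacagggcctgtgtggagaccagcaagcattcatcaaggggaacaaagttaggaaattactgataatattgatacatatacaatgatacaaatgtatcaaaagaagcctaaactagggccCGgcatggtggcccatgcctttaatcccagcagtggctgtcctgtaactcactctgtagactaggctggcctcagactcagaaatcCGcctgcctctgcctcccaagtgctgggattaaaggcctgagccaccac
Fosb: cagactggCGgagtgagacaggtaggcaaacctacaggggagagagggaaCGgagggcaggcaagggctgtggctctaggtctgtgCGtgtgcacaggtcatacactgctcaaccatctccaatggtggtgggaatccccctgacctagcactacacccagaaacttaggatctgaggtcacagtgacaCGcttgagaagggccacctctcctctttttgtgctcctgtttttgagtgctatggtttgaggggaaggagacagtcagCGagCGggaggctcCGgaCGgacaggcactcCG
Rpl29-ps1: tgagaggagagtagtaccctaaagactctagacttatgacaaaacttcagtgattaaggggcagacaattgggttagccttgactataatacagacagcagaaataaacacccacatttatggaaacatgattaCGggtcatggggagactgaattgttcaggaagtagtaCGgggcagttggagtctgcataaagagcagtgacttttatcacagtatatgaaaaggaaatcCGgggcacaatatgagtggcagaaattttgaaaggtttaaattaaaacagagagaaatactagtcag
Cd2ap: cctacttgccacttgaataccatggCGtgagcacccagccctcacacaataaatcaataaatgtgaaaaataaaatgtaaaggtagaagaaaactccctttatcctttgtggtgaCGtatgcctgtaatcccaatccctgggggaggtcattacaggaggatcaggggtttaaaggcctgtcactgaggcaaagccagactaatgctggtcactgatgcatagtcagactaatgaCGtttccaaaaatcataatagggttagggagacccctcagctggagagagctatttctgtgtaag
Airn: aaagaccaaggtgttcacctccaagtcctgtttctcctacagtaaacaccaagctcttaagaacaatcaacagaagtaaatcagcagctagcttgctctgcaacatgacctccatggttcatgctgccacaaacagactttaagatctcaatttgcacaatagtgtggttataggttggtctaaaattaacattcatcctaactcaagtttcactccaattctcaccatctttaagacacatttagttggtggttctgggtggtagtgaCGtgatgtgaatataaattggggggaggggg
The Fosb window holds 9 CpGs. The Klf4 SE window holds 3, and the 3 windows gained with dTAG-13 hold 3, 3 and 1. Of the Klf4 SE window, 58.7% of bases are masked as repeats. Across all 35324 regions the same window held a median of 6 CpGs.

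The libraries were not alike in peak number, width, base composition and fold enrichment, which bears on every result. The DMSO libraries held 88050, 117475 and 96407 deposited peaks, and dTAG-13 replicates 1, 2 and 3 held 30259, 117348 and 45662. Replicates 1 and 3 of dTAG-13 also had narrower peaks among the strongest 20000, with median widths of 445 and 560 bp, against 1084 bp in replicate 2 and 980 to 1102 bp in DMSO. Their summit windows had a median GC content of 51.3% and 45.3%, against 57.0% in replicate 2 and 55.0% to 57.7% in DMSO. Replicate 3 alone contributed 6167 regions that no other library had, of which 3.65% were promoter regions, compared with 1161 to 1478 in each of the others. Over the regions with a deposited peak in every library, the median fold enrichment was 6.62, 7.04 and 6.90 in DMSO. After dTAG-13 it was 4.84, 7.50 and 3.49 in replicates 1, 2 and 3. Fold enrichments given below as deposited carry this difference between libraries. dTAG-13 replicate 2 therefore resembled the DMSO libraries, and the main results below are also given for it alone. The peak files hold no read numbers, so the depth of the libraries is unknown, and no source used here states that the S2 chromatin scaled the deposited values.

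Promoters took up a smaller part of the strongest peaks in 2 of the 3 dTAG-13 libraries, and the difference was within the spread of that group. Promoter peaks made up 45.0%, 43.1% and 44.1% of the strongest peaks in DMSO, against 34.2%, 45.0% and 23.8% after dTAG-13. The groups overlapped, because dTAG-13 replicate 2 equalled the highest DMSO library. The means were 44.1% ± 0.925 and 34.3% ± 10.6 (SD, n = 3 each). A two-sided permutation test, exact over all splits, gave p = 0.4 and cannot go below 0.1 with 3 libraries against 3. Replicate 2 alone lay 0.943 percentage points above the DMSO mean. With all deposited peaks in place of the strongest 20000 the direction turned, to 17.8% ± 1.77 in DMSO and 25.4% ± 9.51 after dTAG-13. The 2 libraries with the low promoter share were those with few peaks and low GC content, whose part in the result was not tested.

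More ERVs were overlapped by H3K27Ac after TRIM28 loss, in both families counted. The IAP elements, also listed by the study, were not analysed here. MMERVK and MMETn are mouse families of long terminal repeat retrotransposons, and their internal parts were counted. Of 780 full-length MMERVKs listed by the study, 5.77%, 7.18% and 6.79% had a strongest peak in the DMSO libraries, against 17.6%, 18.97% and 23.3% after dTAG-13. Of 445 MMETns, the DMSO libraries overlapped 30.3%, 33.7% and 33.9%, and the dTAG-13 libraries 58.2%, 66.7% and 71.7%. In both families every dTAG-13 library lay above every DMSO library. The difference was 13.4 percentage points for MMERVKs and 32.9 for MMETns, both at the limit of p = 0.1 (exact permutation test, n = 3 a group). dTAG-13 replicate 2 alone differed from the DMSO mean by 12.4 and 34.1 points. Every peak was also set to 500 bp around its summit, which shortened wider peaks and lengthened narrower ones. MMERVKs then went from 5.38% to 6.28% in DMSO up to 15.6% to 20.6% after dTAG-13, and MMETns from 23.4% to 26.3% up to 46.5% to 54.6%. In such bulk libraries, acetylation in more of the cells and stronger acetylation in each cell cannot be told apart.

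Within the MMERVKs the added overlap was counted by subfamily. MMERVK9C elements (196) had a strongest peak in 13.9% ± 1.64 of cases before and 42.7% ± 7.81 after dTAG-13, and MMERVK9E elements (175) in 11.2% ± 1.84 and 38.7% ± 5.72. In both subfamilies the groups did not overlap (p = 0.1 each, exact permutation test, n = 3 each). MMERVK10C elements (349), the longest of the 4 subfamilies with a median length of 6457 bp, had one in 1.24% ± 0.165 in DMSO and 1.24% ± 0.596 after dTAG-13, and groups overlapped. The 60 MMERVK10D3 elements had no strongest peak in any library. A difference between subfamilies was not tested. Element by element, 64 MMERVKs (8.21%) and 95 MMETns (21.3%) carried a strongest peak in every dTAG-13 library and in no DMSO library, and 0 of either family showed the converse. A further 27 MMERVKs and 107 MMETns carried the mark in all 6 libraries, so that part of the MMETns was acetylated while TRIM28 was present. For 582 MMERVKs (74.6%) and 107 MMETns (24.0%) no library had a strongest peak. The share of all strongest peaks that this concerns was small, at 0.300% to 0.350% in MMERVKs in DMSO and 0.860% to 1.39% after dTAG-13, and at 0.820% to 0.845% and 1.54% to 2.31% in MMETns. Reads of near-identical copies can be placed on any of them, so a single element is less certain than its family.

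**Figure D1:**
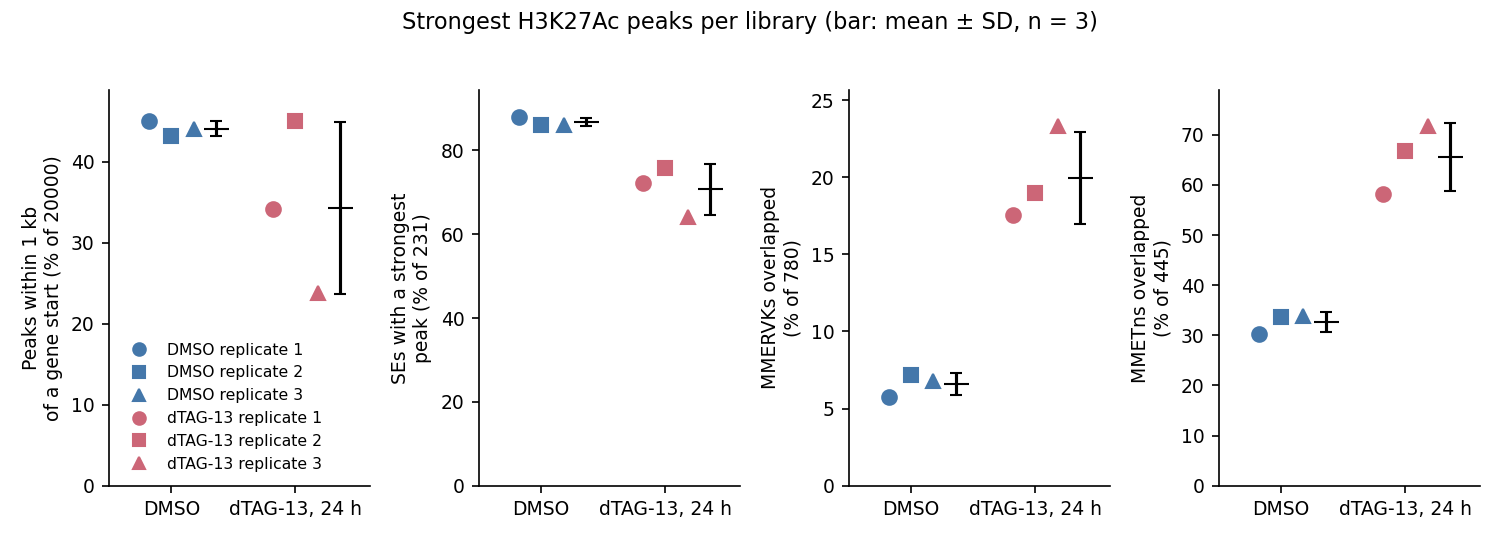
Each point is a library (colour for treatment, shape for replicate number), bars give the mean ± SD of 3 libraries, and the vertical axes give, from left to right, the percentage of strongest peaks within 1 kb of a gene start, of 231 SEs with a strongest peak, of 780 MMERVKs and of 445 MMETns overlapped. The groups overlap for promoters, where dTAG-13 replicate 2 is at 45.0%, and are apart in the other panels, with SEs lower and both ERV families higher after dTAG-13.

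Each element was divided into 4 equal bins along its length. The summits were most frequent at the 3′ end of the elements before and after dTAG-13. In the internal part of MMERVKs, which is what the list holds, the 3′ end bin was the bin with the most summits, with 3.08 to 3.33 summits per 100 elements in DMSO and 10.3 to 16.8 after dTAG-13. In MMETns the 3′ end bin held 18.7 to 21.1 and 32.6 to 44.7 summits per 100 elements. A second rise lay within 500 bp upstream of the 5′ end, where long terminal repeats, the promoters of ERVs, adjoin the internal part, with 9.66 to 10.8 summits per 100 MMETns in DMSO and 18.0 to 24.3 after dTAG-13. By a larger factor, summits per 100 MMETns also rose in the 3rd element bin, from 2.02 to 5.17 in DMSO to 14.2 to 23.4 after dTAG-13. Between -1500 and -1000 bp they rose from 2.02 to 2.92 in DMSO to 8.76 to 20.7. Of all MMETn summits within 3 kb, 58.8% to 61.5% lay in the element in DMSO and 52.5% to 55.6% after dTAG-13. Summits upstream of it made up 31.2% to 33.3% and 34.8% to 38.3%. These ranges do not overlap, and they were not tested further. Among MMERVK summits the ranges overlapped, with 51.1% to 58.9% and 53.8% to 57.3% in the element and 22.1% to 30.9% and 26.5% to 29.5% upstream. In the 5′ end bin of MMETns the groups met, with 6.74 to 7.87 summits per 100 elements in DMSO and 7.87 to 9.89 after dTAG-13, and in the next bin they overlapped, with 0.449 to 2.697 and 2.25 to 12.4.

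**Figure D2:**
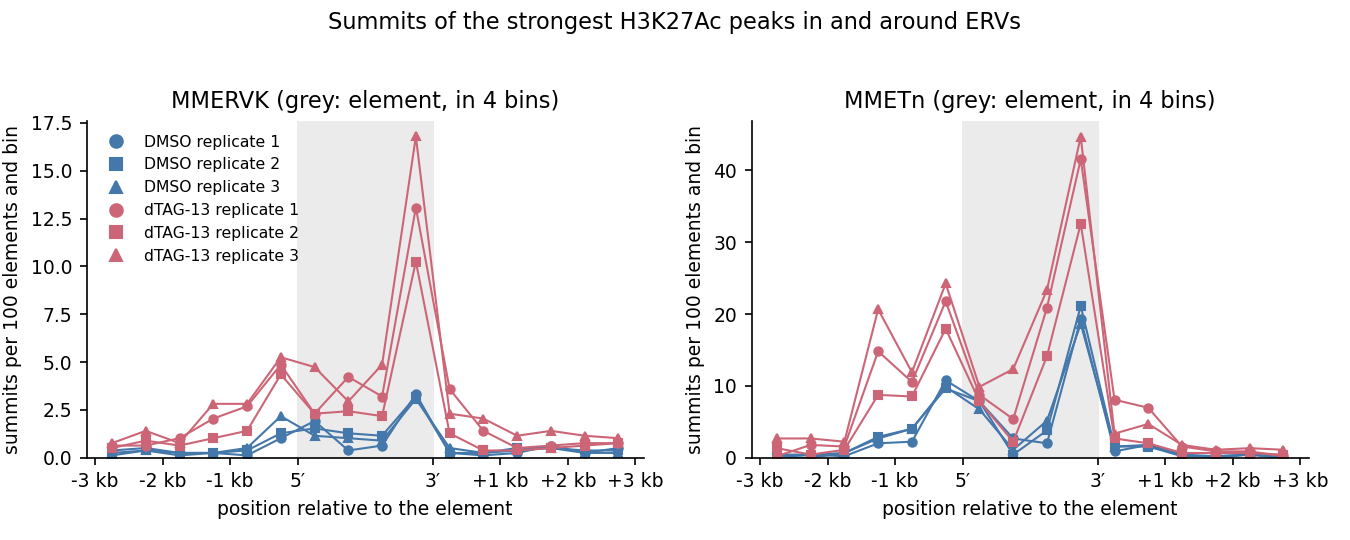
The horizontal axis gives the position relative to each element (bins of 500 bp outside it, 4 equal bins inside it, shaded) and the vertical axis the summits of strongest peaks per 100 elements and bin, with 1 line per library. All 3 dTAG-13 lines lie above the DMSO lines in the 3′ end bin, where they reach 10.3 to 16.8 for MMERVKs and 32.6 to 44.7 for MMETns.

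Most SEs held H3K27Ac in both groups, and fewer of them held a strongest peak after dTAG-13. Of 231 SEs, 203, 199 and 199 held at least 1 strongest peak in DMSO, against 167, 175 and 148 after dTAG-13. The groups did not overlap. This is 86.7% ± 1.00 against 70.7% ± 6.00 (p = 0.1, exact permutation test, two-sided, n = 3 each). dTAG-13 replicate 2, with as many deposited peaks as DMSO replicate 2, held 25.3 fewer SEs than the DMSO mean. With all peaks set to 500 bp the numbers were 193, 191 and 190 in DMSO, against 168, 168 and 144 after dTAG-13. The strongest peaks covered 32.5%, 33.9% and 29.0% of the SE length in DMSO, against 13.4%, 25.1% and 14.3% after dTAG-13, a value that moves with the peak width. Peaks with their summit in an SE gave no such difference. They made up 1.56%, 1.59% and 1.69% of strongest peaks in DMSO, against 2.01%, 1.33% and 1.47% after dTAG-13 (p = 1, exact permutation test, n = 3 each). This share counts peaks, so an SE with several narrow peaks counts several times. dTAG-13 replicate 1 had the narrowest peaks and the highest share, and replicate 2, with widths like those of DMSO, lay below every DMSO library. The part of peak width in this share was not tested.

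By SE, 131 held a strongest peak in all 6 libraries, 8 in every DMSO and no dTAG-13 library, 0 in the converse pattern and 17 in none. The level of SE regions above other distal regions, taken as the difference of their median log2 fold enrichment after quantile normalization, was 0.38, 0.48 and 0.45 in DMSO, against 0.31, 0.15 and 0.25 after dTAG-13. Every dTAG-13 library lay below every DMSO library, and replicate 2 was the lowest. The difference was -0.20 on the log2 scale (p = 0.1, exact permutation test, n = 3 each) and -0.26 when refitted with replicate 2 as the lone treated library. The median log2 change of the distal SE regions themselves was 0.16, -0.29 and 0.05 in dTAG-13 replicates 1, 2 and 3, and that of distal regions outside SEs 0.23, -0.04 and 0.33. Of 363 distal SE regions, 202 had a peak in every library and were tested. Among these 202, limma called 0 in either direction, 10 had an unadjusted p below 0.05 (4 higher, 6 lower), and their median log2 change was -0.01. SE regions that had no peak in some library, as at Klf4, are not covered by these values.

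Of 8 SEs named for genes of the pluripotency network, the SE of Klf4 was the 1 that held strongest peaks in every DMSO and in no dTAG-13 library. Klf4 is a Krüppel-like factor of the naive state, and the nearest listed SE, 54.3 kb from its start, had highest fold enrichments of 6.98, 8.61 and 7.49 in DMSO. After dTAG-13, replicate 1 had no deposited peak in it and replicates 2 and 3 had 3.58 and 2.67. It held 4, 3 and 2 strongest peaks in DMSO and 0 in all dTAG-13 libraries. The SE nearest to Esrrb, an orphan nuclear receptor, lies 105 kb from the gene start and held 6.15, 7.06 and 4.70 in DMSO. Only replicate 2 of dTAG-13 had a peak there, at 5.11, so the groups overlapped. Neither SE could be fitted, because a library had no peak.

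The Mir290a SE, beside the microRNA cluster of pluripotent cells, was the strongest of the 8 in DMSO replicates 1 and 2. Its highest fold enrichments were 20.4, 22.5 and 11.7 in DMSO, against 8.36, 12.0 and 5.99 after dTAG-13. The groups overlapped as deposited, and the log2 change of the region with the largest fall was -0.59 after normalization (adjusted p = 0.601, limma). The SE at Fgf4, a growth factor that readies mESCs for differentiation, had 9.63, 15.3 and 15.2 in DMSO, against 4.57, 9.15 and 4.40 after dTAG-13. Here all treated libraries were lower, with a log2 change of -0.76 and adjusted p = 0.448 in limma. Mycn, a MYC family factor, had 9.49, 10.0 and 9.71 in DMSO, against 6.82, 7.80 and 6.61 after dTAG-13, also without overlap as deposited and with a log2 change of -0.06 once the libraries were put on the same distribution. The remaining SEs were at Nanog, Sox2 and Sall1, transcription factors of the same network. Nanog went from 9.51, 14.5 and 11.0 to 4.03, 15.7 and 4.58, where replicate 2 was the highest of all 6 libraries. The log2 changes were -0.38 at Nanog, -0.08 at Sox2 and 0.01 at Sall1. None of the regions in these 8 SEs that could be tested passed the test.

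**Figure D3:**
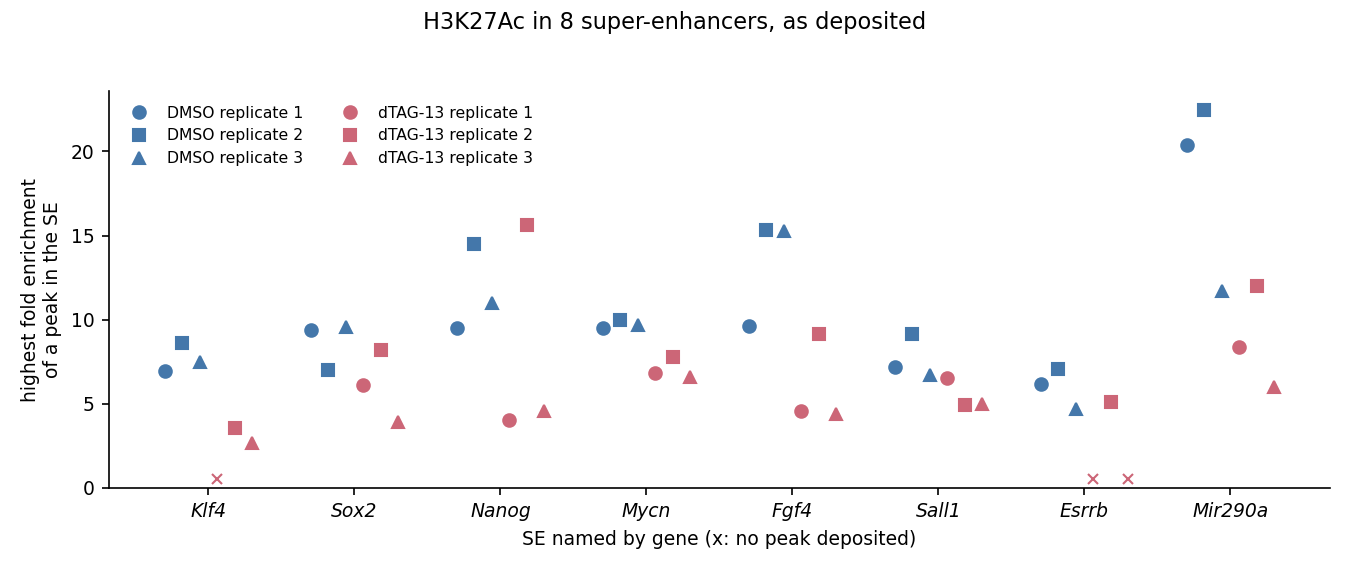
For 8 SEs, named by their gene, the vertical axis gives the highest fold enrichment of a deposited peak in each library (points by treatment and replicate, crosses where the library has no peak). At Klf4 the DMSO libraries are at 6.98 to 8.61 and the treated ones at 3.58, 2.67 and no peak, while at Nanog dTAG-13 replicate 2 is the highest at 15.7.

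Fold enrichment was compared region by region where all 6 libraries had a deposited peak (13733 regions), on the log2 scale after quantile normalization, with limma. After dTAG-13, 138 regions were higher (1.00% of those tested) and 22 lower (0.160%) at an adjusted p below 0.05, 1.17% together, and 1567 had an unadjusted p below 0.05. A region without a peak in some library was not tested. Of 593 regions with a strongest peak in every DMSO and no dTAG-13 library, 82 had a deposited peak in every dTAG-13 library. Of 504 regions with the converse pattern, 195 had one in every DMSO library. The calls thus cover a smaller part of such losses than of such gains. Of the 138 that rose, 135 were distal, 3 were promoter regions (2.17%, against 46.0% of all tested), 0 lay in an SE, 21 overlapped an MMERVK and 38 an MMETn. Together the ERVs made up 42.8% of them, against 2.00% of all regions tested, and the median share of bases masked as repeats was 71.4%, against 20.1%. Of the 22 that fell, 13 were promoter regions (59.1%, against 46.0% of all tested), 0 lay in an SE (1.86% of all tested) and 0 overlapped either ERV family.

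By category, the 88 regions in MMERVKs had a median log2 change of 0.78, with 21 called higher and 0 lower by limma. The 188 regions in MMETns had a median of 0.73, with 38 higher and 0 lower, and in both families 0 were lower at an unadjusted p below 0.05. Promoter regions (6314) had a median of -0.17 with 3 higher and 13 lower, and distal regions outside SEs (7217) a median of 0.15 with 135 higher and 9 lower. The median over all tested regions was -0.00446. Regions whose groups did not overlap and were higher numbered 49 of 88 in MMERVKs and 94 of 188 in MMETns, where all tested regions gave 8.46% higher and 7.14% lower. In SEs 5 of 202 did so upward and 15 downward, or 2.48% and 7.43%, near or below these backgrounds. Per library, the MMERVK median was 0.72, 0.33 and 1.31 in dTAG-13 replicates 1, 2 and 3, and the MMETn median 0.70, 0.29 and 1.298. Both were above 0 in each library, whereas the promoter median was -0.19, 0.06 and -0.40 and so had no common direction.

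Which regions passed depended on the libraries. Without dTAG-13 replicate 3, 17 were higher and 0 lower (1528 at an unadjusted p below 0.05), without replicate 2, 434 and 317, and without replicate 1, 119 and 13. Leaving out a DMSO library gave 45 to 55 higher and 1 to 5 lower. Without any scaling the median over all regions moved to -0.43 and limma called 0 (1414 at an unadjusted p below 0.05). Relative to that shift the medians stayed at 0.82 in MMERVKs, 0.77 in MMETns and -0.16 at promoters, while the unshifted median of distal regions outside SEs turned from 0.15 to -0.26.

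**Figure D4:**
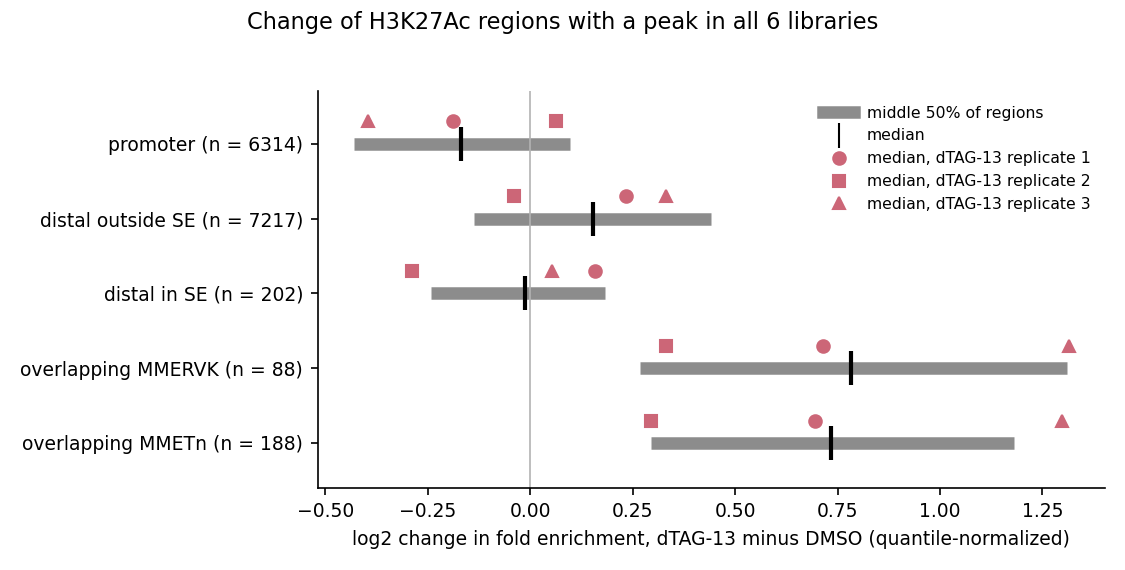
The horizontal axis gives the log2 change in quantile-normalized fold enrichment, dTAG-13 minus DMSO, for regions with a peak in all 6 libraries, with the middle 50% of regions as a grey bar, the median as a line and the median of each dTAG-13 library as a symbol. MMERVK and MMETn regions sit above 0 in every library, with medians of 0.78 and 0.73, and promoter and SE regions lie on both sides of 0.

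The rises and falls named below were picked among called regions whose groups did not overlap, so that separation is no further support. The distal region that rose most was at chr10:127816130-127819947, in an intron of Rdh16 and nearest to the pseudogene Rdh18-ps, and overlaps an MMERVK. Its fold enrichments were 2.96, 2.60 and 3.36 in DMSO, against 12.8, 11.6 and 17.4 after dTAG-13. The log2 change was 2.49 ± 0.38 (standard error), with adjusted p = 0.000152 in limma. The next regions lay near Hps3, a gene for the sorting of lysosome-related organelles, 1700007E05Rik, the olfactory receptor gene Olfr345 and Myo3a, an unconventional myosin of the inner ear, with log2 changes of 2.24, 2.20, 2.17 and 2.12. At Hps3 (chr3:20042734-20047016) the values went from 2.98, 5.74 and 5.88 to 13.4, 20.1 and 18.7. All 4 are intergenic, and between 67.6% and 93.9% of their bases are masked repeats. All 5 of these distal regions overlapped an H3K9me3 peak in 3 of 3 DMSO libraries, and after dTAG-13 in 1 of 3 libraries at Hps3 and Olfr345 and in 0 at the others. Each was overlapped by peaks of MED23, a Mediator subunit, in both dTAG-13 libraries, while in DMSO both libraries had one at Hps3 and Myo3a, 1 had one at Olfr345 and 0 at the other two.

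The 3 promoter regions that rose lay near Gm10031, Gm18620 and Zfp640, a zinc-finger gene. At Gm10031 (chr1:156521096-156523923) the fold enrichments were 2.69, 2.74 and 3.20 in DMSO, against 7.10, 10.9 and 8.11 after dTAG-13. The log2 change was 1.90 ± 0.35 (standard error), with adjusted p = 0.00122 (limma). Gm10031 and Gm18620 were covered by H3K9me3 in 3 of 3 DMSO libraries and Zfp640 in 0 of 3. Without dTAG-13 replicate 3, Gm10031 and all 5 of the named distal rises were still called, and Gm18620 and Zfp640 were not.

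The largest falls at promoters were at Coq7, an enzyme of coenzyme Q synthesis, Ssbp1, which binds single-stranded mitochondrial DNA, Gm43182, the elongation factor gene Iws1 and Tbc1d2, a regulator of Rab GTPases. At Coq7 (chr7:118532082-118534031, coding exon) the values were 24.4, 19.9 and 27.3 in DMSO, against 2.66, 11.8 and 6.68 after dTAG-13. As deposited, replicate 2 was the least changed. After quantile normalization the treated values were 2.59, 8.98 and 10.96, so replicate 3 was the least changed on that scale. The log2 change was -1.70 ± 0.42 (standard error), with adjusted p = 0.0204 in limma, and those of the other 4 ranged from -1.60 to -1.43. The largest distal fall was 9.73 kb from Fosb, an immediate early AP-1 factor, at chr7:19318303-19320148. There, 13.9, 14.6 and 13.7 in DMSO became 2.61, 7.98 and 1.78, with a log2 change of -1.80 ± 0.38 (standard error) and adjusted p = 0.00381 (limma). The other 4 named distal falls, near Gm27935, Rbmx2, Gm5251 and 4921511E07Rik, consist of masked repeats over their whole length. None of these 10 falls was still called without dTAG-13 replicate 3.

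Some regions were among the strongest in a single treatment only. There were 504 regions with a strongest peak in every dTAG-13 and no DMSO library (1.43% of regions) and 593 with the converse pattern (1.68%), beside 5221 with a strongest peak in all 6. Of the dTAG-13 regions 15 were promoter regions (2.98%), 0 lay in SEs, 61 overlapped an MMERVK and 92 an MMETn. Of the DMSO regions 163 were promoter regions (27.5%), 20 lay in SEs (3.37%) and 0 overlapped either family. Among all regions 30.9% were promoter regions, 1.26% lay in SEs and 1.97% overlapped 1 of the ERV families. Of the 5221 shared regions 3.01% lay in SEs. Of the 504, 383 had a weaker deposited peak in at least 1 DMSO library and 195 in every DMSO library. Of the 593, 578 had one in at least 1 dTAG-13 library and 82 in every dTAG-13 library. With dTAG-13 replicate 2 as the lone treated library the numbers were 2757 and 1385.

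The strongest dTAG-13 regions lay near Gm12312, Rdh18-ps, Gckr, which encodes the glucokinase regulator, 1700007E05Rik and Gm11810. In an intron of Gckr (chr5:31313620-31317782) the DMSO libraries had 2.45, 2.60 and no deposited peak, and the treated libraries 10.2, 14.3 and 14.1. Near Gm12312 (chr11:70365424-70368811) there was no deposited peak in DMSO replicate 1, 3.64 and 3.36 in the others, and 13.1, 17.2 and 13.4 after dTAG-13. Both were at RNAPII peaks in 2 of 2 dTAG-13 and 0 of 2 DMSO libraries. The strongest DMSO regions lay near Mrgprb3, a receptor of sensory neurons, 4930595M18Rik, Abhd17b, a depalmitoylating enzyme, Speer4b and Gm26345. Near Abhd17b, in its intron, 9.21, 11.2 and 9.40 in DMSO stood against no peak, 3.65 and 1.85. The other 4 consist almost wholly of masked repeats, from 99.7% to 100% of bases, and reads in them can be shared with other copies.

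The other ChIP-seq libraries of the same cells give measures that did not choose these regions. Among the 504 dTAG-13 regions, 40.9% to 50.0% overlapped an H3K9me3 peak in the 3 DMSO libraries and 5.75% to 9.92% in the 3 dTAG-13 libraries. Among all regions the values were 3.50% to 5.53% and 1.15% to 1.46%. MED23 moved the other way at these 504, from 7.74% and 10.1% in 2 DMSO libraries to 74.4% and 74.8% in 2 dTAG-13 libraries, where all regions gave 26.4% and 26.7% and then 20.6% and 21.4%. Thus MED23 peaks became frequent at the gained H3K27Ac while they overlapped fewer of all regions. Every library entered with the same number of MED23 peaks, so more of them at some sites leaves fewer for others. The fall over all regions is therefore no measure of lost Mediator. For RNAPII only the 5000 strongest peaks were used, against 10000 for MED23, so the sizes of their shares cannot be compared. RNAPII peaks overlapped 0.397% and 0.198% of the 504 in DMSO (2 and 1 regions). With dTAG-13 they overlapped 1.59% and 1.19% (8 and 6 regions). Over all regions RNAPII went from 15.7% and 15.8% to 11.9% and 11.0%. The paper reports that RNAPII occupancy, seen as read density, rose at ERV families, which overlap with the strongest peaks does not measure. The 351 dTAG-13 regions outside MMERVKs and MMETns showed 34.5% to 41.6% with H3K9me3 in DMSO, 3.42% to 7.98% after dTAG-13, and MED23 at 9.40% and 12.0% and then 69.2% and 69.8%.

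At the 593 DMSO regions H3K9me3 was found at 2.02% to 5.90% in DMSO, close to all regions. MED23 overlapped 31.0% and 31.4% of them in DMSO, falling to 14.2% and 15.3% with dTAG-13, and RNAPII 8.60% and 9.78% and then 5.23% in both. MED23 and RNAPII overlap also fell over all regions, as given above, and the limit from equal numbers of peaks applies here too. The 5221 regions shared by all libraries also had fewer MED23 peaks, with 65.2% and 65.5% in DMSO against 52.6% and 53.6% with dTAG-13. In each of these comparisons the libraries of the treatments did not overlap, and no test was run on the shares. The 138 regions called higher gave 55.8% to 65.2% and 7.25% to 10.1% for H3K9me3, and 28.3% and 34.8% and then 89.1% and 90.6% for MED23.

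**Figure D5:**
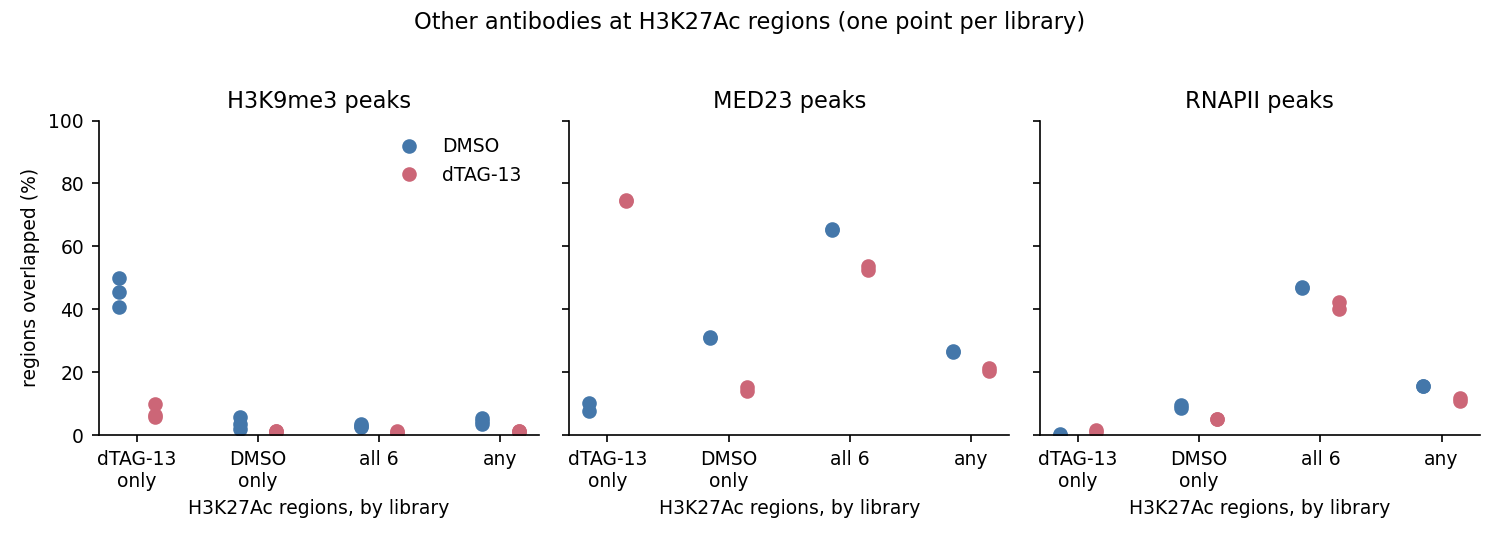
The vertical axis gives the percentage of H3K27Ac regions overlapped by peaks of H3K9me3 (3 libraries per treatment), MED23 and RNAPII (2 each), and the horizontal axis the 504 regions of dTAG-13 only, the 593 of DMSO only, the 5221 of all 6 libraries and all 35324, with 1 point per library. At the dTAG-13 regions H3K9me3 goes from 40.9% to 50.0% down to 5.75% to 9.92%, and MED23 from 7.74% and 10.1% up to 74.4% and 74.8%.

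The base composition of both sets was read from the genome. In 300 bases around the summit the median GC content was 43.3% in the 504 dTAG-13 regions and 56.7% in the 593 DMSO regions, against 51% in all, and the median number of CpGs was 3, 12 and 6. The regions called higher held 43.0% GC and 3 CpGs, and those called lower 64.2% and 20.5. The letters of 4 motifs were searched on both strands. GGGNGTGG, of the Krüppel-like factors, occurred in 11.6% of all regions, in 17.9% of the 363 distal SE regions, in 11.0% of the DMSO regions and in 5.95% of the dTAG-13 regions. TGCCGC, the core bound by the imprinting factor ZFP57, occurred in 8.33% of all regions, 17.7% of promoter regions and 0.794% of the dTAG-13 regions. The octamer ATGCAAAT was found in 0.838% of all, 0.794% of the dTAG-13 and 0.169% of the DMSO regions (1 of 593), and TCAAGGTCA, the ESRRB site, in 0.620% and 0%, with 0.843% of DMSO regions. The GC content of the libraries themselves differed as given above, and its part in these shares was not tested.

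RNA from the same line was set beside the peaks, as RNA-seq (steady-state mRNA) and TT-SLAM-seq (newly made RNA) at 24 h of dTAG-13. In RNA-seq 10.1% of all 17922 genes tested rose and 2.01% fell by more than 2-fold at an adjusted p below 0.05. Of 109 genes nearest to a dTAG-13 region within 50 kb, 34 rose (31.2%) and limma called 0 lower (17 lower at an unadjusted p below 0.05), with a median log2 change of 0.41 against 0.13 in all genes. In TT-SLAM-seq 8 of 84 such genes rose (9.52%) and limma called 0 lower (2 at an unadjusted p below 0.05), against 2.49% and 0.906% of all genes, and the median was 0.40 against 0.21. That count moved with the pseudocount, from 17 of 84 (20.2%, against 6.73% of all genes) at 0.1 to 2 of 84 (2.38%, against 1.18%) at 1. When genes had to average 5 FPKM or more, 7 were left and limma called 0, with a median of -0.02. Genes nearest to a region called higher gave 12 of 36 in RNA-seq. Of 136 genes with a promoter region in DMSO only, limma called 13 higher (9.56%, near the background) and 0 lower in RNA-seq, with 28 lower at an unadjusted p below 0.05. Of 274 genes nearest to a DMSO-only region within 50 kb, 21 rose (7.66%) and 6 fell (2.19%) in RNA-seq. In TT-SLAM-seq 1 of 200 such genes rose (0.5%) and 5 fell (2.5%), against 2.49% and 0.906% of all genes. The falls numbered 7 (3.5%, against 1.52%) at a pseudocount of 0.1 and 2 (1%, against 0.621%) at 1. With a mean of at least 5 FPKM, 12 were left and limma called 0 (2 higher and 5 lower at an unadjusted p below 0.05). Without dTAG-13 replicate 2, regions in DMSO only numbered 2741 instead of 593. Genes with a promoter region among them then gave 87 called higher and 13 lower. The number of genes in that larger set is not given, so these counts cannot be set against the background. Of 7 genes with a promoter region in dTAG-13 only, 2 rose, the acetyltransferase-like gene Nat8f2 and Gm10479, named after their values were seen. Among the other genes, Gm10031, the largest promoter rise, had a log2 change of -0.16 (adjusted p = 0.00302, limma). Zfp640 had one of 0.11 (adjusted p = 0.386, limma). Of the 7, 5 had a change above 0. In TT-SLAM-seq 2 such genes were tested and limma called 0 higher.

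The clearest of the neighbouring genes were chosen by their RNA change after the values were seen. Cyp2b23, a cytochrome P450, lies 8.18 kb from a dTAG-13 region with fold enrichments of 4.85, 6.92 and 7.32, and of 2.60 in DMSO replicate 2 alone. Its mRNA was 2.51, 2.76 and 2.58 TPM in DMSO and 30.5, 36.9 and 36.7 TPM after dTAG-13 (log2 change 3.49, adjusted p = 1.59e-11, limma on log2(TPM + 0.5)). Arntl2, a paralogue of the clock factor BMAL1, has a region in an MMETn 4.31 kb away, with 3.96, 4.94 and 3.19 after dTAG-13 and no deposited peak in DMSO. Its mRNA rose from 8.94, 9.33 and 10.2 to 34.7, 43.9 and 47.4 TPM (log2 change 2.08, adjusted p = 8.44e-10, limma). Pdk4, a kinase that holds back pyruvate dehydrogenase, lies 26.0 kb from a region in an MMERVK with 6.53, 5.39 and 9.35 after dTAG-13 and 2.56 in DMSO replicate 3 alone. Its mRNA rose from 1.80, 2.36 and 1.69 to 10.3, 9.79 and 7.82 TPM, again with no overlap of the groups. The imprinted antisense RNA Airn, whose start is 1.28 kb from the region printed above, went from a mean of 0.813 to 3.05 TPM (log2 change 1.41, adjusted p = 0.000133, limma). That region had 2.61, 2.703 and no peak in DMSO, against 4.29, 4.94 and 3.36 after dTAG-13.

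Gene lists showed what the mark did at known promoters. Of 20 pluripotency genes 12 had a region at the gene start, and none of 10 neural, 12 feeder fibroblast or 12 early 2-cell genes did. Strongest peaks were at 11, 12 and 11 of the pluripotency genes in DMSO, against 8, 11 and 8 after dTAG-13. For 10 housekeeping genes the numbers were 9, 9 and 9, then 6, 9 and 7, also lower in replicates 1 and 3. The 8 that could be tested had log2 changes from -0.26 at Pou5f1, which encodes OCT4, to 0.18 at Sall4, with a median of -0.01. limma called 0 of them, and 0 had an unadjusted p below 0.05. In RNA-seq, Pou5f1 mRNA went from a mean of 1162 to 537 TPM (log2 change -1.11, adjusted p = 1.94e-08, limma). At the Klf4 promoter the fold enrichments were 13.3, 11.9 and 12.9 in DMSO and none, 10.9 and 4.06 after dTAG-13, so that replicate 2 stayed close to the DMSO libraries there while its SE had lost its strongest peaks. Klf4 mRNA went from a mean of 44.1 to 11.6 TPM (log2 change -1.89, adjusted p = 2.42e-12, limma).

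Of 15 imprinted genes 6 had a region, and of the 4 tested, Peg3 (-0.56), Meg3 (-0.34), Kcnq1ot1 (-0.22) and Zrsr1 (0.17), 0 were called. Strongest peaks were at 4 imprinted genes in each DMSO library and at 4, 6 and 0 in dTAG-13 replicates 1, 2 and 3. The TRIM28 pathway, with SETDB1, HP1 proteins and partners, had 8 of 12 genes with a region, a median of -0.23 and 0 calls. The lowest value was -0.78 at Uhrf1, which maintains DNA methylation (unadjusted p below 0.05, adjusted p = 0.437, limma), and the highest 0.24 at Daxx, a histone H3.3 chaperone. Of 12 acetylation writers, erasers and readers, 8 were tested, with a median of -0.19 that ran from -0.57 at Brd2 to 0.04 at Hdac1. Housekeeping genes (9 tested of 10) had a median of -0.14, close to the -0.17 of all promoter regions. No formative or endoderm gene could be tested, and a region was found at 2 of 10 formative genes (Zic2 and Etv4) and 1 of 15 endoderm genes (Lamb1).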

How the data were processed

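TRIM28-FKBP mESCs were profiled by ChIP-seq, RNA-seq and TT-SLAM-seq. Per the labels and the study's methods, reads were trimmed with cutadapt 2.4 and aligned with BWA, and MACS2 called peaks in each library. The deposited peak files give fold enrichment (a ratio to local background) and the −log10 of a q-value per peak. The authors deposited TPM for RNA-seq, made with STAR 2.7.5a and StringTie 2.0.6, and FPKM for TT-SLAM-seq, computed from htseq-count counts of reads that SLAM-DUNK had processed after removal of rRNA reads with STAR. Peak-calling settings and any scaling by spike-in are not given in the sources used here.

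From each library the strongest 20000 peaks by fold enrichment entered, and rows with the same coordinates were counted once. A region took the highest fold enrichment of the peaks overlapping it by at least 1 bp, and regions with a peak in all 6 libraries were quantile-normalized on the log2 scale and compared with limma 3.58.1 (R 4.3.3, Benjamini-Hochberg adjusted p below 0.05). Shares were compared by two-sided exact permutation tests. For H3K9me3 and MED23 the 10000 strongest peaks were used, and for RNAPII 5000. RNA was compared with limma on log2(value + 0.5) over 15 RNA-seq and 12 TT-SLAM-seq libraries, for genes of at least 1 TPM or 0.5 FPKM in 3 libraries, with calls at an adjusted p below 0.05 and more than 2-fold. Fold changes on that scale understate the change of low genes. The scripts were tested on simulated data. Annotation was GENCODE vM21 and sequence RefSeq GRCm38.p6. SEs, MMERVKs and MMETns were the study's lists, and its IAP, other repeat and enhancer lists were not used here.

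Named were the genes of fixed lists, the 5 largest rises and falls among called promoter and distal regions whose groups did not overlap, the listed SEs nearest to 8 genes, and the 5 strongest regions of each treatment only. Members and lists were chosen with earlier results of these data known. Deviations of libraries with the same replicate number correlated at -0.02, -0.07 and 0.04, so the numbers were not taken as pairs. Alternatives varied the number and ranking of peaks, scaling, filters, distances, pseudocounts and libraries.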

Additional observations from a re-analysis of the deposited data

How the results depend on the processing

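The overlaps with MMERVKs (9.02 to 14.6 percentage points) and MMETns (22.9 to 36.9) and the SE level (-0.29 to -0.15) kept their direction under every alternative run. The promoter share turned from -9.75 to 7.59 points with all deposited peaks and to 0.943 with dTAG-13 replicate 2 as the lone treated library, an alternative added after seeing the data. The SE share, -0.00667 points, became 0.408 with all deposited peaks, 0.04 with peaks ranked by −log10 q, and -0.21 to 0.13 when a library was left out (0.0308 without DMSO replicate 3, 0.13 without dTAG-13 replicate 2, 0.06 without dTAG-13 replicate 3). Regions higher numbered 138, and 0 without scaling (limma, 1414 at an unadjusted p below 0.05), 231 with library weights (added after seeing the data), 17 to 434 when a library was left out and 12 with the lone library, whose fit takes its spread from the DMSO libraries alone and assumes that a treated library varies alike. Regions lower numbered 22, and 12 with median centring, 0 without scaling, 207 with library weights, 0 to 317 when a library was left out and 1 with the lone library, so that 86.3% of calls were higher in the reported fit and 52.7% with library weights. Regions in dTAG-13 only numbered 504, and 304 with 10000 peaks, 317 with all deposited peaks, 580 to 935 when a library was left out and 2757 with the lone library. Regions in DMSO only numbered 593, and 318, 3901, 833 to 2741 and 1385 in the same order. Genes with a DMSO-only promoter region called higher numbered 13, and 6 with 10000 peaks, 8 by −log10 q, 13 to 87 when a library was left out and 22 with the lone library, and those called lower 0, and 9 with all deposited peaks, 1 by −log10 q, 0 to 13 and 8. Genes with a dTAG-13-only promoter region called higher numbered 2, and 1 with all deposited peaks, 6 by −log10 q, 1 with a mean of at least 5 TPM, 3 to 12 when a library was left out and 68 with the lone library. The sizes of the gene sets in these alternatives are not given, so their counts cannot be set against the share over all genes. The 18 named called regions kept their sign in all 286 refits and lost the call in 96. With a replicate block 159 regions were higher and 29 lower, the differences in shares and levels kept their values (-9.75, 13.4, 32.9 and -0.20 among them) with sign-flip p of 0.25 to 1 (exact, smallest possible 0.25), and no call was lost. The causes of these shifts were not tested. Peak files without read numbers leave the precision of single fold enrichments unknown.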
